A study of Mus musculus with 12 samples.

Results

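The genes of the G1 cyclins and of the inhibitors of their kinases were followed in mouse granulosa cells, which line the ovarian follicle and nurse its oocyte. The members were the genes Ccnd1, Ccnd2, Ccnd3, Ccne1, Ccne2, Cdkn1a, Cdkn1b, Cdkn1c, Cdkn2c and Cdkn2d, with every probe set that the array annotation assigns to one of them alone. That gave 10 of 18193 genes and 23 of 34945 single-gene probe sets. RNA was measured on 12 single-colour Affymetrix arrays, 3 for each of 4 groups. The first group was granulosa cells of Inha-/- mice after PMSG and hCG, and its wild-type counterpart came from mice with the same injections. The other groups were cells of Inha-/- mice and of wild-type mice after PMSG alone. Inha encodes the inhibin alpha subunit, and inhibins oppose activins and lower the pituitary release of follicle-stimulating hormone. All mice were 21 days old, carried the mixed strain background C57BL/6J;129S5/SvEvBrd and had received 5 IU of PMSG (pregnant mare serum gonadotropin, which acts like follicle-stimulating hormone) for 44 to 46 h. In the hCG groups 5 IU of human chorionic gonadotropin, which stands in for the ovulatory surge of luteinizing hormone, followed for 6 h. There was no group without PMSG. The cells were released by puncturing antral follicles, a step that can carry along other cells of the ovary. Whether cells of several animals were pooled is not given in the sources used here, and the design calls the 3 samples of a group independent.

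A cell enters S phase when its G1 cyclins outweigh the inhibitors of their kinases. D-type cyclins bind CDK4 and CDK6 and E-type cyclins bind CDK2, and these kinases phosphorylate the retinoblastoma protein and so release E2F factors, which switch on replication genes. Inhibitors of the Cip/Kip family (Cdkn1a, Cdkn1b, Cdkn1c) act mainly on the cyclin E and cyclin A kinases, and those of the INK4 family (Cdkn2c, Cdkn2d) bind CDK4 and CDK6. In the mouse ovary follicle-stimulating hormone drives granulosa cell division through cyclin D2, and granulosa cells leave the cell cycle after the luteinizing hormone surge as they turn into luteal cells.

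The deposited log2 expression of a probe set was centred so that its median over all arrays is 0. A value therefore gives a difference from that median and no level, and levels of different genes cannot be set against each other. The targeted gene matched the labels on every array, since Inha lay between -7.40 and -5.40 on the knockout arrays and between 5.40 and 5.87 on the wild-type arrays. Markers of some other cell types moved with genotype. After hCG 6 of 12 oocyte markers were called higher in the knockout and none lower, 7 of 14 theca and stroma markers were higher, and 5 of 9 surface epithelium markers were lower, as were 4 of 9 after PMSG alone. Of the theca and stroma markers 5 of 14 were called higher and 1 lower after PMSG alone, with a median difference of 1.74. The median of the oocyte list by array ran from 0.19 to 2.88 in knockout cells after hCG and from -1.63 to -0.60 in wild-type cells after hCG. After PMSG alone it ran from 0.67 to 2.05 in the knockout and from -1.46 to -0.41 in wild type, with 2 of 12 markers called. The median of the theca and stroma list ran from 0.32 to 2.03 in knockout and from -1.03 to -0.45 in wild-type cells after hCG. Of 10 granulosa markers measured, 4 were called higher in the knockout after hCG and 1 lower after PMSG alone, and 7 were called lower by hCG in wild type. Between genotypes after hCG 0 of 10 leukocyte and 0 of 3 red blood cell markers were called. Of 8 endothelium markers 1 was lower in the knockout, and of 7 Sertoli markers 1 was higher and 1 lower. Over all genes 7.79% were called higher and 5.47% lower between genotypes after hCG, and 1.70% and 1.64% after PMSG. For hCG in wild type these shares were 6.34% and 7.14%. Centred values cannot show whether any marker was absent. The part of these other cells in the results that follow was not tested, and in bulk RNA fewer cells of a type and less RNA per cell cannot be told apart. The serial numbers of the arrays fell into 7 early and 5 late arrays. Replicate 1 of each hCG group was early and replicates 2 and 3 were late. The PMSG arrays were early but for replicate 3 of the knockout. Genotype differences of some members are therefore also given within a serial range. For hCG in wild type, with no late PMSG array, such a value is given for Cdkn1a alone. Replicates 2 and 3 of wild type after hCG also share the number in their array names.

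After hCG the knockout cells had more Ccnd2, Ccne1 and Ccne2 and less Cdkn2d than wild-type cells. These 4 of the 10 members were called, which means a Benjamini-Hochberg adjusted p under 0.05 in a limma model fitted to all 34945 probe sets. Each gene is represented by its leading probe set, the one with the largest SD over the 12 arrays. Among the leading probe sets of all genes 7.79% were called higher and 5.47% lower in this comparison, against 3 and 1 of the 10 members. Over all probe sets 11 of the members' 23 were called (47.8%), 9 higher and 2 lower, against 12.1% of all probe sets, and 7 of the 11 measured the same gene, Ccnd2. The median log2 difference of the members was 0.15, against 0.00057 over all genes.

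Before hCG knockout cells had more Ccne1 than wild-type cells, the 1 member called higher, and 0 were called lower. Over all genes 1.70% were called higher and 1.64% lower, and over all probe sets 3.04% were called. The other 9 members had log2 differences between -1.25 and 0.64 that did not pass the test.

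In wild-type cells hCG raised the inhibitors Cdkn1a and Cdkn2d, the 2 leading probe sets called, and 0 members fell by that measure. Over all genes 6.34% were called higher and 7.14% lower. Among all 23 probe sets of the members 3 were called higher and 4 lower (30.4%), against 12.1% of all probe sets, and the 4 lower ones all measured Ccnd2. In knockout cells 0 of the 10 members and 0 of the 23 probe sets passed the limma test for a response to hCG, and 2 of the 10 had an unadjusted p under 0.05, both higher (Ccnd2 and Cdkn1a), against 9.83% of all genes. The share called over all genes was also small there, 1.30% higher and 0.137% lower, and 1.20% of all probe sets. The difference between the responses to hCG in knockout and in wild-type cells (the interaction) was called for 0 members, against 0.242% higher and 0.841% lower over all genes and 0.930% of all probe sets. Without adjustment 2 members had an interaction p under 0.05, Ccnd2 higher and Cdkn2d lower, against 11.5% of all genes.

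**Figure D1:**
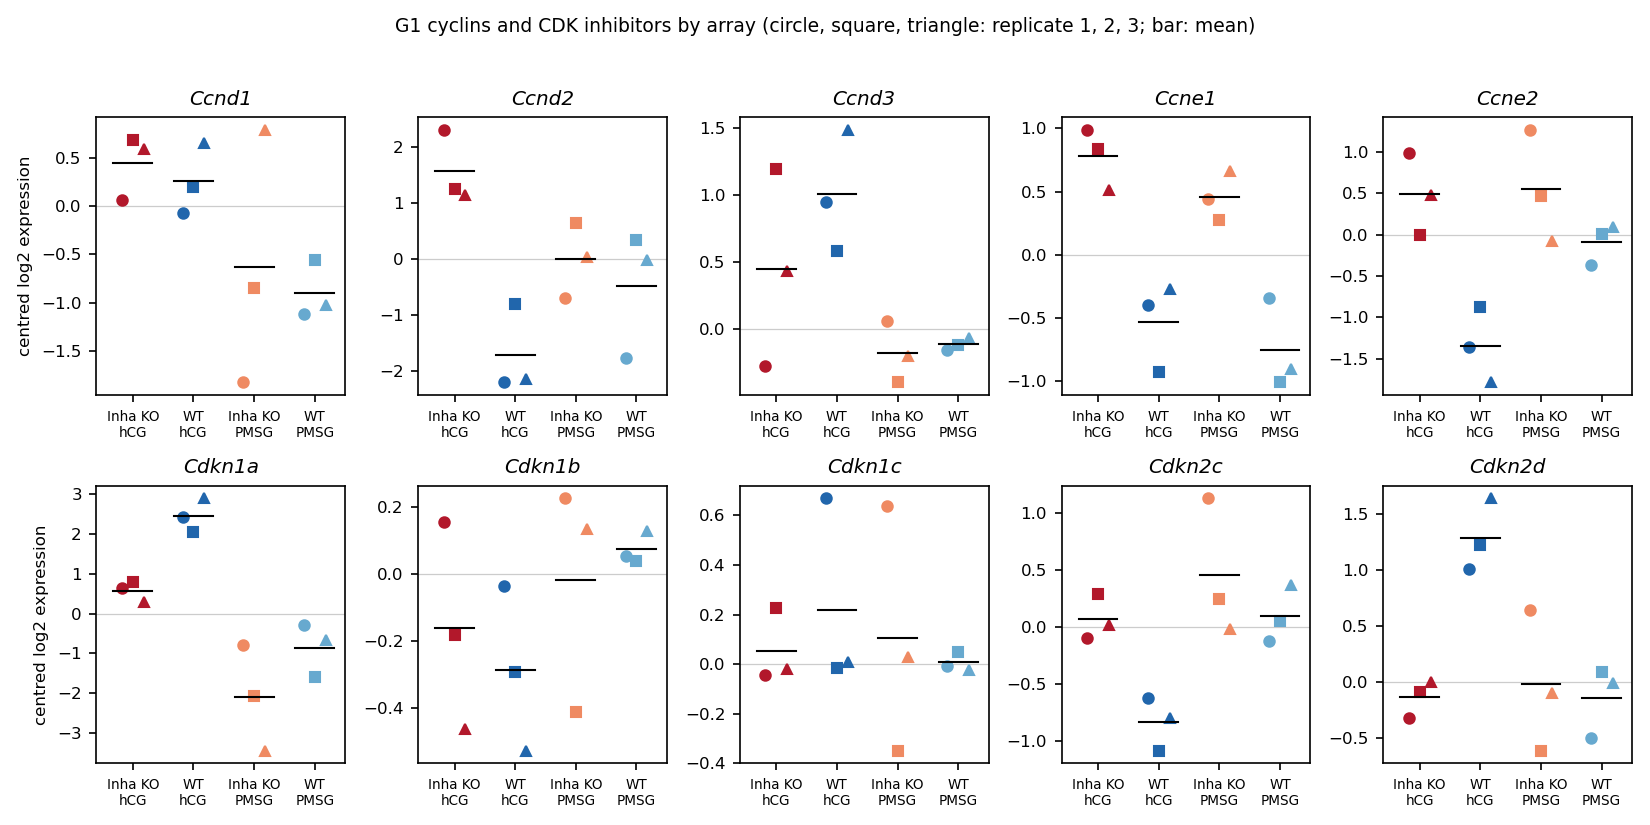
Centred log2 expression of the leading probe set of each of the 10 genes on each array, in 4 groups of 3 arrays (circle, square and triangle for replicates 1, 2 and 3; the bar is the group mean). The knockout points of Ccnd2, Ccne1, Ccne2 and Cdkn2c after hCG lie above all wild-type points after hCG. Those of Cdkn1a and Cdkn2d lie below them. The vertical scale differs between genes.

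Ccnd2, the D cyclin on which granulosa cell division depends in mice, was the one D cyclin called between genotypes. After hCG its leading probe set stood at 2.30, 1.25 and 1.14 in knockout cells, against -2.21, -0.81 and -2.15 in wild-type cells (replicates 1 to 3). After PMSG alone it stood at -0.70, 0.63 and 0.030 in knockout cells and at -1.77, 0.34 and -0.030 in wild-type cells. The 3 knockout arrays after hCG were the highest of all 12, the wild-type arrays after hCG were low, and the genotypes overlapped after PMSG. The difference after hCG was 3.29 ± 0.63 (log2 ± SE, 9.78-fold, adjusted p = 0.00900). After PMSG it was 0.47 ± 0.63 (adjusted p = 0.738), with a 95% interval of -0.94 to 1.89.

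All 7 probe sets of Ccnd2 were called higher in the knockout after hCG, with log2 differences from 2.17 to 3.29. All 7 are assigned to one gene and are not independent of each other. Those with differences of 3.17 and 2.17 can, by their names, match other transcripts as well. The probe set with the smallest adjusted p (0.000599, log2 difference 2.25 ± 0.24) read 0.73, 0.57 and 0.76 in knockout and -1.57, -0.98 and -2.13 in wild-type cells after hCG. After PMSG it read 0.23, 0.50 and 0.085 in knockout cells and -0.30, -0.12 and -0.085 in wild-type cells, so on this probe set the wild-type arrays after hCG alone stood far from the rest. All 7 calls held when any 1 of the 12 arrays was left out. The leading probe set then gave 2.92 to 3.75, the lower value without replicate 1 of the knockout after hCG, where this probe set was highest (2.30). Within the early arrays the difference was 4.51 and within the late ones 2.68, each from few arrays and not called alone.

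**Figure D2:**
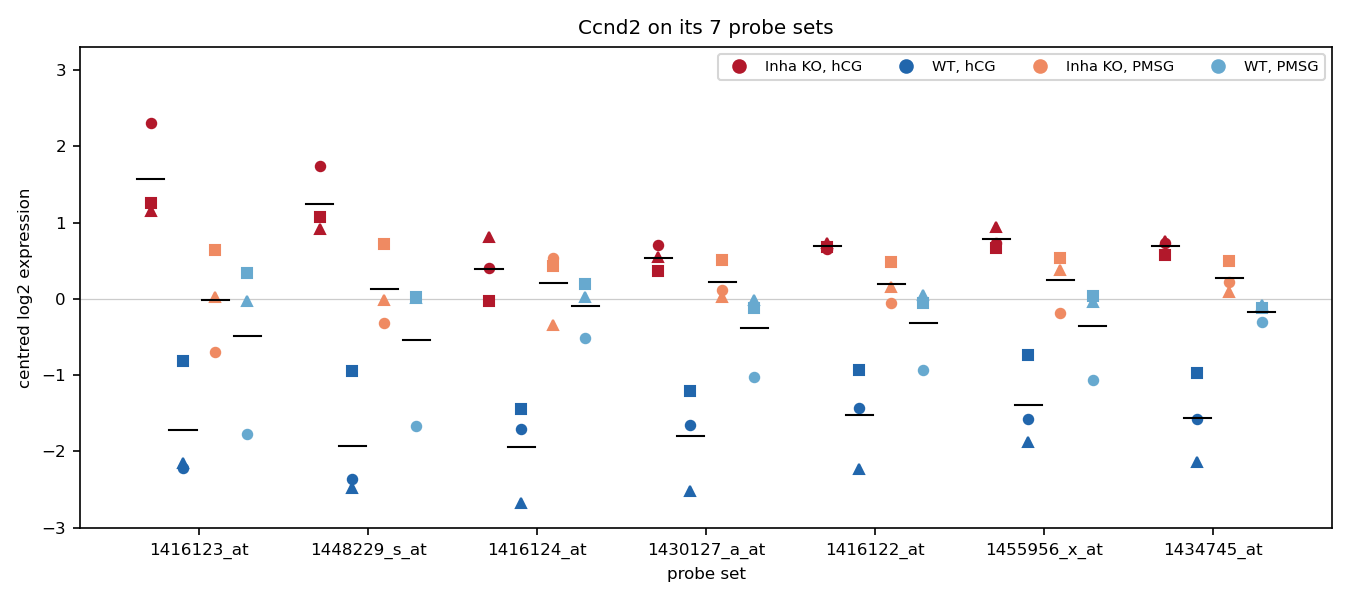
Centred log2 expression (vertical axis) on the 7 probe sets of Ccnd2 (horizontal axis) for the 12 arrays, coloured by group, with circle, square and triangle for replicates 1, 2 and 3 and a bar at each group mean. On every probe set the 3 knockout arrays after hCG lie above the 3 wild-type arrays after hCG, and the spread of the wild-type arrays after PMSG differs between probe sets.

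All 7 probe sets of Ccnd2 had a negative log2 difference for hCG in wild-type cells, from -1.84 to -1.04, and 4 of them were called. In wild-type cells the leading probe set gave -1.24 ± 0.63 (adjusted p = 0.296) and was not called, with replicate 1 after PMSG (-1.77) inside the hCG range. On 4 of the other 6 probe sets Ccnd2 fell, by 1.84, 1.40, 1.39 and 1.22 on the log2 scale (adjusted p = 0.0122, 0.0305, 0.00666 and 0.0477). The falls of 1.84 and 1.39 held without any 1 array, that of 1.40 in 8 of 12 such fits and that of 1.22 in 2 of 12. In knockout cells the leading probe set gave 1.58 ± 0.63 (adjusted p = 0.453) and the others 0.19 to 1.11, none of them called. The interaction was 2.82 ± 0.89 on the leading probe set (adjusted p = 0.242), and the smallest adjusted p among the 7 was 0.0504, for an interaction of 1.81. The 2 comparisons that show Ccnd2 apart, knockout against wild type after hCG and hCG against PMSG in wild type, share the 3 wild-type arrays after hCG.

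Ccnd1 and Ccnd3, the other D cyclins, had no called difference on any of their probe sets. The leading probe set of Ccnd3 stood at -0.27, 1.20 and 0.43 in knockout and 0.95, 0.59 and 1.49 in wild-type cells after hCG, and at 0.064, -0.40 and -0.20 in knockout and -0.16, -0.12 and -0.064 in wild-type cells after PMSG. The wild-type arrays after hCG were all above those after PMSG, and the knockout arrays after hCG overlapped both. The wild-type response was 1.12 ± 0.34 (adjusted p = 0.0655), and its other 2 probe sets gave 0.65 and 0.084. For Ccnd1 the leading probe set gave 0.064, 0.70 and 0.59 in knockout and -0.064, 0.21 and 0.66 in wild-type cells after hCG, against -1.83, -0.85 and 0.79 in knockout and -1.12, -0.56 and -1.02 in wild-type cells after PMSG. The genotypes overlapped at both times, and the wild-type arrays after hCG were above all those after PMSG. The genotype difference after hCG was 0.18, with a 95% interval of -1.05 to 1.42, and the hCG response was 1.17 in wild type (adjusted p = 0.248) and 1.08 in the knockout (adjusted p = 0.639). The knockout value was 0.48 without replicate 1 and 1.79 without replicate 3 of the knockout after PMSG. A second probe set of Ccnd1 was near 0 on all arrays but the late knockout arrays after hCG, at 2.63 and 1.03, and its genotype difference of 1.12 (adjusted p = 0.231) was 0.41 without the first of these and 1.74, then called, without replicate 1 of the knockout after hCG.

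Both E-type cyclins, which activate CDK2 at the start of S phase, were higher in knockout cells after hCG, and Ccne1 was higher before hCG as well. Ccne1 stood at 0.99, 0.84 and 0.52 in knockout and -0.40, -0.93 and -0.27 in wild-type cells after hCG, and at 0.44, 0.27 and 0.66 in knockout and -0.34, -1.01 and -0.90 in wild-type cells after PMSG. All 6 knockout arrays lay above 0 and all 6 wild-type arrays below it. The difference was 1.31 ± 0.23 after hCG (2.48-fold, adjusted p = 0.00551) and 1.21 ± 0.23 after PMSG (2.31-fold, adjusted p = 0.0231). Neither genotype had a called response to hCG (0.32 in knockout and 0.22 in wild-type cells), and the interaction was 0.10 with a 95% interval of -0.61 to 0.82. The second probe set of Ccne1, which by its name can match other transcripts, gave 0.84 after hCG (adjusted p = 0.0601) and 0.78 after PMSG (adjusted p = 0.158), the same sign and not called. Without any 1 array the difference after hCG was called, at 1.12 to 1.44. That after PMSG stayed at 1.08 to 1.41 but was not called without replicate 2 or 3 of wild type or replicate 3 of the knockout after PMSG. Within the early and the late arrays it was 1.38 and 1.28 after hCG, and within the early arrays 1.11 after PMSG. The 2 pairs of knockout and wild-type arrays after PMSG that share an array name number gave 0.78 and 1.29. The promoter of Ccne1, the one cyclin here called at both times, is shown here (RefSeq, GRCm38.p6, chr7:38107441-38107740, minus strand, 300 bases around the annotated start), with capitals at the GC box GGGCGG, the core letters of an Sp1 site, on either strand.
Ccne1: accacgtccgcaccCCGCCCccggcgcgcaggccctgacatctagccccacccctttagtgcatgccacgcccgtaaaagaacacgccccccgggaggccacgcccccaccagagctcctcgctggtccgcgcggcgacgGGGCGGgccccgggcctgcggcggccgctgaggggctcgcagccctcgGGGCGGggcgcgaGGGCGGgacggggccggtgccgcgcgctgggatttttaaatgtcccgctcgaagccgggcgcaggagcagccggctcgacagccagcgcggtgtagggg

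Ccne2 was measured by 1 probe set, at 0.99, -0.0084 and 0.47 in knockout and -1.36, -0.88 and -1.79 in wild-type cells after hCG, and at 1.26, 0.46 and -0.083 in knockout and -0.37, 0.0084 and 0.088 in wild-type cells after PMSG. The wild-type arrays after hCG were the 3 lowest, and the other 3 groups overlapped. The difference after hCG was 1.83 ± 0.37 (3.55-fold, adjusted p = 0.0126), and it was not called without replicate 3 of wild type after hCG (leave-one-out values 1.57 to 2.07). It was 2.35 within the early and 1.56 within the late arrays. The hCG response was -1.25 ± 0.37 in wild type (adjusted p = 0.0621) and -0.062 ± 0.37 in the knockout (adjusted p = 0.949). The difference between these responses was 1.19 ± 0.53 (adjusted p = 0.478). With the number in the array names as a random block the genotype difference of Ccne2 after hCG stayed at 1.83 but had an adjusted p of 0.0658.

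Cdkn1a, which encodes the Cip/Kip inhibitor p21 and is a classical target of p53, had the largest hCG response of the members in wild-type cells. Its leading probe set stood at 0.64, 0.80 and 0.28 in knockout and 2.42, 2.06 and 2.90 in wild-type cells after hCG, against -0.79, -2.08 and -3.44 in knockout and -0.28, -1.60 and -0.67 in wild-type cells after PMSG. In each genotype the hCG arrays were above all PMSG arrays, and after hCG the knockout arrays were below all wild-type arrays. In wild type Cdkn1a rose by 3.31 ± 0.60 (9.94-fold, adjusted p = 0.00756), and the second probe set rose by 2.13 ± 0.40 (adjusted p = 0.00934). Both calls held without any 1 array, at 2.94 to 3.60 and at 1.75 to 2.40. The early arrays alone gave 3.27 for the leading probe set.

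In the knockout the leading probe set of Cdkn1a gave 2.68 ± 0.60 after hCG (adjusted p = 0.0839, called without replicate 1 of the knockout after PMSG, at 3.34), and the second one 0.44 (adjusted p = 0.848). On the second probe set the knockout arrays after hCG stood at -0.0090, -0.038 and 1.40 and the wild-type ones at 1.36, 1.70 and 2.65, so that replicate 3 of the knockout reached the wild-type range and the other two did not. The difference between genotypes after hCG was -1.88 ± 0.60 on the leading probe set (adjusted p = 0.0753, not called) and -1.45 ± 0.40 on the second (adjusted p = 0.0465, called, and called in 2 of 12 fits without 1 array). With the probe sets averaged per gene it was -1.67 (adjusted p = 0.0122), and with tests limited to genes of high SD the leading probe set passed (adjusted p = 0.0326). The leading probe set gave -1.78 within the early and -1.94 within the late arrays. After PMSG it gave -1.25 ± 0.60 (adjusted p = 0.393) and the second probe set 0.24, of opposite sign. The interaction was -0.63 ± 0.84 (adjusted p = 0.866) on the leading and -1.69 ± 0.57 (adjusted p = 0.284) on the second probe set.

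Cdkn2d, which encodes the INK4 inhibitor p19, stood highest in wild-type cells after hCG. It stood at -0.32, -0.085 and 0.0047 in knockout and 1.01, 1.23 and 1.64 in wild-type cells after hCG, and at 0.65, -0.61 and -0.091 in knockout and -0.49, 0.090 and -0.0047 in wild-type cells after PMSG. The 3 wild-type arrays after hCG were above all other 9, and the other 3 groups overlapped. Knockout cells had -1.42 ± 0.30 relative to wild-type cells after hCG (2.68-fold lower, adjusted p = 0.0147), and hCG raised Cdkn2d by 1.43 ± 0.30 in wild type (adjusted p = 0.0151). Both comparisons use the same wild-type arrays after hCG. The response in the knockout was -0.12 ± 0.30, and the interaction of -1.54 ± 0.43 was not called (adjusted p = 0.173). The genotype difference stayed between -1.57 and -1.25 without any 1 array and was not called without replicate 3 of wild type after hCG. The wild-type response stayed between 1.25 and 1.57 and was not called without that array or without replicate 1 of wild type after PMSG. Within the early and the late arrays the genotype difference was -1.33 and -1.47. With the early or late serial as a covariate the wild-type response was 1.29 (adjusted p = 0.0574). With the array name number as a random block neither call held (-1.38 with adjusted p = 0.120 for genotype after hCG and 1.40 with adjusted p = 0.111 for hCG in wild type).

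The promoters of Cdkn1a and Cdkn2d, the 2 members called higher after hCG in wild type, are shown next (RefSeq, GRCm38.p6, 300 bases around the annotated start, capitals at GGGCGG on either strand). The Cdkn1a window is chr17:29093519-29093818 on the plus strand, and that of Cdkn2d is chr9:21291160-21291459 on the minus strand. RefSeq promoters were at hand for 6 of the 10 members, in 9 windows. The GC box occurred 2 times in this Cdkn1a window, 5 times in that of Cdkn2d and 4 times in that of Ccne1. A second Cdkn1a window, chr17:29090729-29091028, holds 0 and is not printed. Of the 9 windows 7 hold at least 1 GC box, against 35.7% of all 32851 promoter windows. The letters TTTCGCGC or TTTGGCGC of an E2F site, searched on both strands, were in 0 of the 9 windows and in 0.813% of all windows. The letters TGACG, shared by cAMP response elements, were in 3 of the 9 windows and in 20.8% of all windows. The E-box CACGTG was in 1 of the 9 windows and in 7.15% of all windows. None of the 3 windows printed holds either. A match is a description of the letters and not a binding site, and the absence of letters from these windows tells nothing of a factor.
Cdkn1a: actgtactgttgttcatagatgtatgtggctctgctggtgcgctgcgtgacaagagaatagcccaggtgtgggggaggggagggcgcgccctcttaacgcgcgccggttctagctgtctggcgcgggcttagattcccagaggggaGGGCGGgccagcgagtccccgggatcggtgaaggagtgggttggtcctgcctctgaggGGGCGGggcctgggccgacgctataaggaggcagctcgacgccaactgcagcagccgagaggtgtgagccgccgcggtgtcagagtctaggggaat
Cdkn2d: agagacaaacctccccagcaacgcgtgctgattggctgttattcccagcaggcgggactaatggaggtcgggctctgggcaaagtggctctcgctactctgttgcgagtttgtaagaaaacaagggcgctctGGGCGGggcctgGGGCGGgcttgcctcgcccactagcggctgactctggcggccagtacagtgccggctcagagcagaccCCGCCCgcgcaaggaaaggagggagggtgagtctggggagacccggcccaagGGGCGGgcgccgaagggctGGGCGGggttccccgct

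Cdkn2c, which encodes the INK4 inhibitor p18, had no called difference. It stood at -0.095, 0.29 and 0.019 in knockout and -0.62, -1.09 and -0.80 in wild-type cells after hCG, and at 1.13, 0.25 and -0.019 in knockout and -0.13, 0.054 and 0.36 in wild-type cells after PMSG. The wild-type arrays after hCG were the 3 lowest of the 12. The genotype difference after hCG was 0.91 ± 0.27 (adjusted p = 0.0640) and the wild-type response -0.93 ± 0.27 (adjusted p = 0.0579), neither called. The genotype difference was 0.53 within the early and 1.10 within the late arrays.

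The remaining Cip/Kip genes had no called difference either. Cdkn1b, which encodes p27, had a leading probe set at 0.16, -0.18 and -0.46 in knockout and -0.037, -0.29 and -0.53 in wild-type cells after hCG, and at 0.22, -0.41 and 0.13 in knockout and 0.054, 0.037 and 0.13 in wild-type cells after PMSG. Its genotype difference after hCG was 0.12, with a 95% interval of -0.33 to 0.58, and its hCG response was -0.36 in wild type with an interval of -0.81 to 0.10. Cdkn1c, the imprinted gene of p57, stood between -0.35 and 0.67 on all 12 arrays, and its genotype difference after hCG was -0.17 with an interval of -0.73 to 0.40. Where a gene is weakly expressed, GCRMA values vary little from array to array, and the files do not tell a low level from a steady one.

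**Figure D3:**
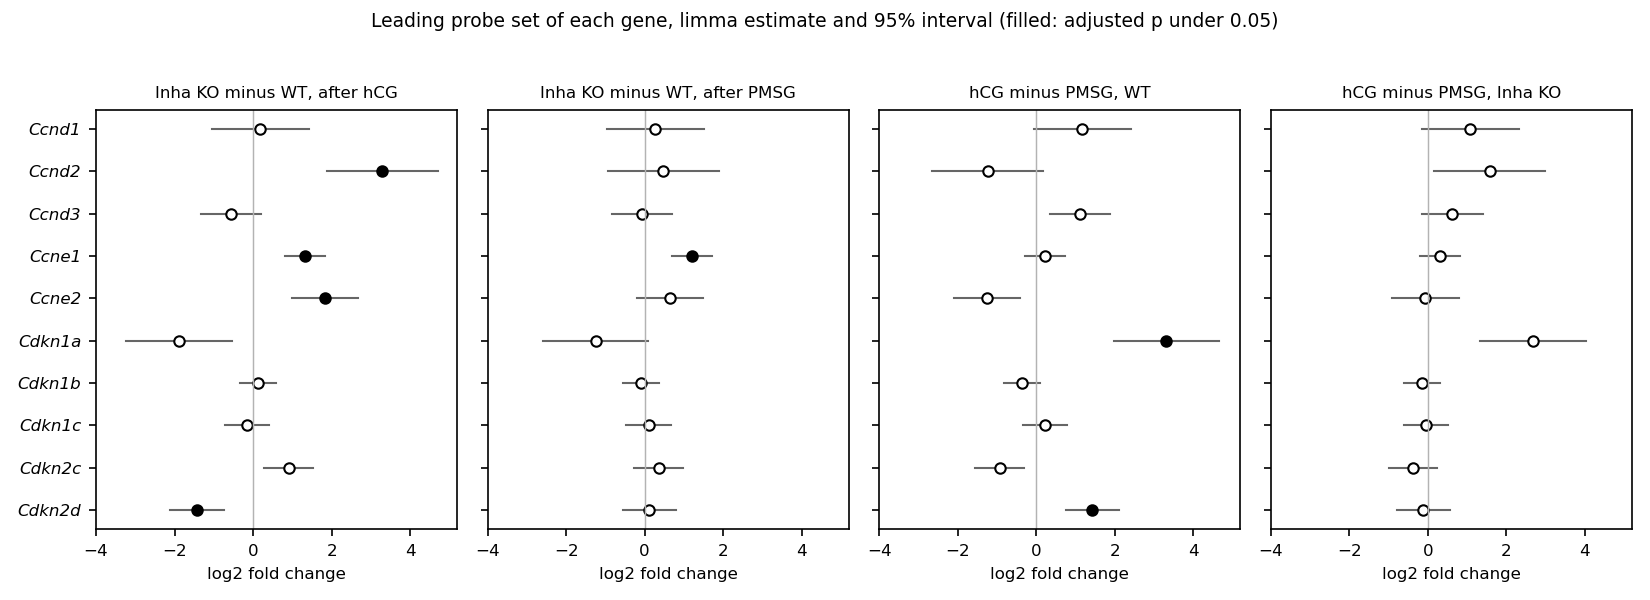
limma log2 fold change of the leading probe set of each member in 4 comparisons, with 95% intervals (horizontal axis in log2 units, filled points at an adjusted p under 0.05). Ccnd2, Ccne1 and Ccne2 lie to the right and Cdkn2d to the left of 0 for knockout minus wild type after hCG, Cdkn1a and Cdkn2d lie to the right for hCG minus PMSG in wild type, and no point is filled for hCG minus PMSG in the knockout.

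Set side by side after hCG, the cyclins called were higher in the knockout and the called inhibitor was lower. The means of the leading probe sets after hCG were 1.57 in knockout and -1.72 in wild-type cells for Ccnd2, 0.78 in knockout and -0.53 in wild-type cells for Ccne1, and 0.49 in knockout and -1.34 in wild-type cells for Ccne2. For the inhibitors they were 0.58 in knockout and 2.46 in wild-type cells for Cdkn1a, and -0.13 in knockout and 1.29 in wild-type cells for Cdkn2d, while Cdkn2c had 0.072 in the knockout and -0.84 in wild type. Of the 10 members 6 had groups that did not overlap between genotypes after hCG, and these were the 6 genes just named. Over all genes 28.0% had groups that did not overlap in this comparison. The SDs of the 3 arrays ranged from 0.17 to 0.64 in knockout and from 0.24 to 0.79 in wild-type cells over these 6.

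Beyond the members, the factors that G1 kinases act through were counted in a list of 18 kinase, pocket protein and E2F genes. In this and the following lists a gene is counted by its leading probe set unless other probe sets are named. Over all genes 7.79% were called higher and 5.47% lower between genotypes after hCG, and 1.70% and 1.64% after PMSG. For hCG these shares were 6.34% and 7.14% in wild type and 1.30% and 0.137% in the knockout. Small counts in a short list are therefore not read as a trait of that list. After hCG 4 of 18 were called higher in the knockout and 0 lower, and after PMSG 2 of 18 were higher and 0 lower, or 1 without replicate 1 or 3 of wild type or replicate 1 of the knockout after PMSG. E2f1, which drives replication genes once released from the retinoblastoma protein, stood at 0.40, 0.36 and 0.53 in knockout and -1.39, -1.12 and -1.62 in wild-type cells after hCG, and at 0.38, 0.48 and 0.50 in knockout and -0.77, -0.36 and -0.95 in wild-type cells after PMSG. All 6 knockout arrays were above all 6 wild-type arrays, and the differences were 1.81 ± 0.16 after hCG (adjusted p = 0.000241) and 1.15 ± 0.16 after PMSG (adjusted p = 0.00711). A second E2f1 probe set gave 1.44 after hCG (adjusted p = 0.00793) and 0.48 after PMSG (adjusted p = 0.496), and another was near 0 throughout. The repressor E2f8 was higher after hCG (0.92) and after PMSG (0.86), and E2f7 (0.55) and Ccna2 (0.92), the cyclin of S phase, were higher after hCG. Cdk4, the kinase of the D cyclins, had 0.62 (adjusted p = 0.0521) on its leading probe set and 0.55 (adjusted p = 0.0327) and 0.57 (adjusted p = 0.0808) on the other two. With every probe set counted, 6 of 18 genes had a higher call after hCG and 3 after PMSG, the pocket protein gene Rbl1 among both (1.23 and 0.94), and 0 had a lower call. In wild type hCG lowered Ccna2 (-0.82), E2f1 (-0.69) and E2f6 (-0.59) and raised E2f3 (0.94), 3 of 18 lower and 1 higher, and 0 of 18 were called for hCG in the knockout or for the interaction. The wild-type count rested on single arrays: it was 0 in both directions without replicate 2 of wild type after PMSG or without replicate 3 of wild type after hCG. The median of the 18 genes was 0.39 for genotype after hCG and -0.30 for hCG in wild type.

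Genes of S phase and mitosis, the processes downstream of the G1 decision, were higher in knockout cells after hCG. Of 19 measured genes of a list of 20, 12 were called higher and 0 lower, with a median of 1.14. The 4 with the smallest adjusted p were Mki67, a marker of cycling cells (1.41 ± 0.20, adjusted p = 0.00203), the mitotic cyclin Ccnb2 (1.35 ± 0.19, adjusted p = 0.00220), the replicative helicase subunit Mcm5 (1.10 ± 0.16, adjusted p = 0.00231) and the licensing factor Cdt1 (1.25 ± 0.19, adjusted p = 0.00295). Mki67 read 0.43, -0.075 and 0.17 in knockout and -1.05, -1.03 and -1.62 in wild-type cells after hCG, and 0.45, 0.98 and 0.53 in knockout and -0.032, 0.032 and -0.083 in wild-type cells after PMSG. The wild-type arrays after hCG were again the 3 lowest. Without any 1 array 9 to 14 of the 19 were called, with the array name number as a random block 7, and within the early or the late arrays alone 0. Before hCG 0 of 19 leading probe sets were called between genotypes, with a median of 0.64, while other probe sets of Mcm7 (0.81, adjusted p = 0.0137) and Cdt1 (0.93, adjusted p = 0.0296) were called higher. Over all 45 probe sets of the list 26 were called higher and 0 lower after hCG, from 14 genes. In wild type hCG lowered 5 of 19 (-1.59 for Ccnb2, -1.20 for Mki67, -0.67 for Plk1, -1.87 for Mcm3 and -0.80 for Mcm7). With every probe set counted 9 genes had a lower call. The count of 5 was 2 without replicate 2 or 3 of wild type after PMSG, without replicate 2 or 3 of wild type after hCG, or without replicate 3 of the knockout after hCG, and 3 without replicate 1 or 2 of the knockout after hCG or replicate 2 of the knockout after PMSG. In the knockout hCG moved 0 of 19 past the threshold, and the interaction was called for 0. By array the median of the list ran from 0.13 to 0.34 in knockout and from -1.11 to -0.58 in wild-type cells after hCG.

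**Figure D4:**
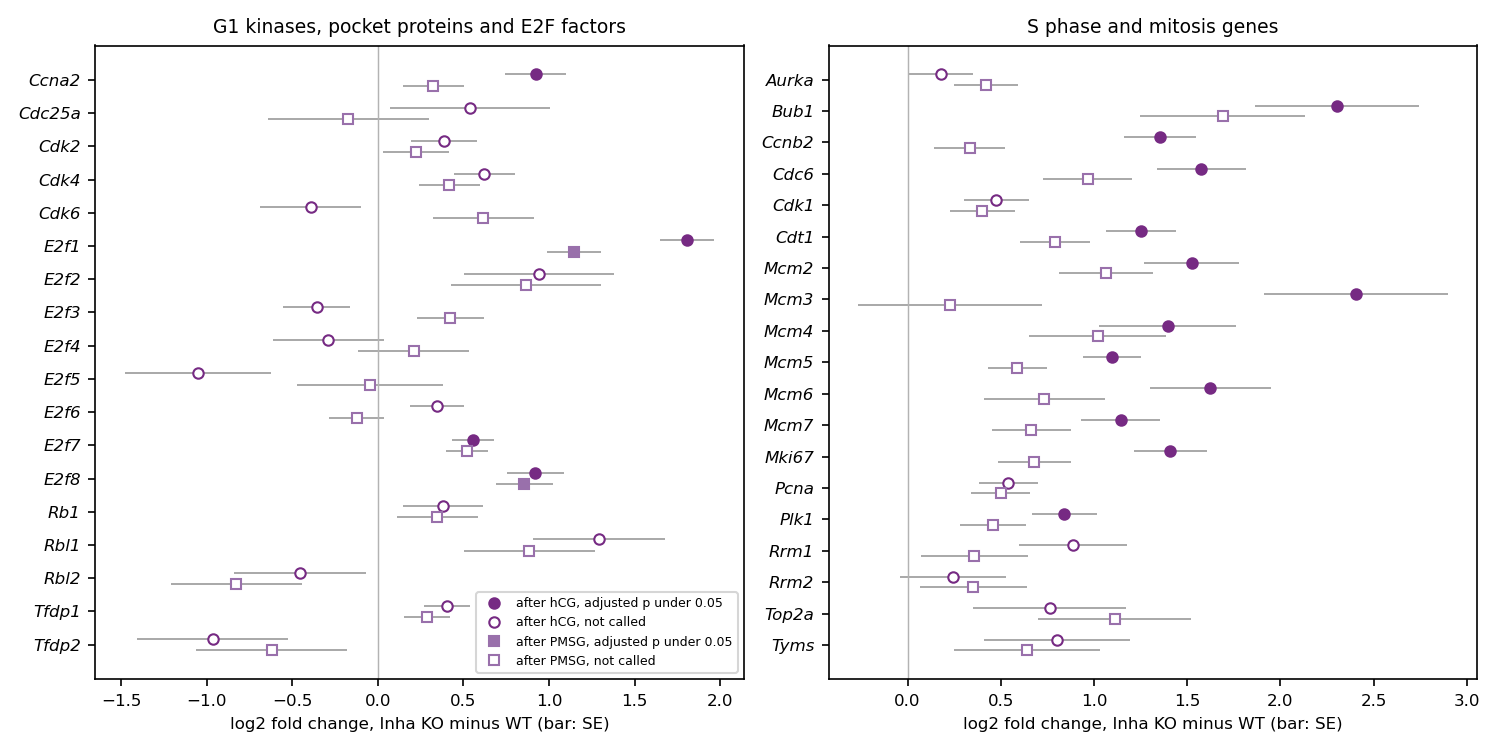
Log2 fold change of knockout minus wild type (horizontal axis, bars are SE) for the measured genes of the G1 kinase, pocket protein and E2F list and of the S phase and mitosis list, after hCG (circles) and after PMSG (squares), filled at an adjusted p under 0.05. In the S phase and mitosis list 12 circles and 0 squares are filled, all to the right of 0.

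Regulators that act on the G1 genes were called in both directions. Of 14 measured upstream regulators 2 were called higher in the knockout after hCG, and these were Mycn (2.88 ± 0.43, adjusted p = 0.00299), a growth-promoting factor of the Myc family, and Foxo1 (1.40 ± 0.34, adjusted p = 0.0271), a forkhead factor that follicle-stimulating hormone signalling restrains through AKT. The other 3 Foxo1 probe sets were not called (0.0058 to 1.18, smallest adjusted p 0.0695). Probe sets other than the leading one were called lower for Smad3 (-0.93, adjusted p = 0.00407), a transducer of activin signals, Foxo3 (-0.78, adjusted p = 0.0120) and Cebpb (-1.22, adjusted p = 0.0444), so with every probe set counted 2 genes had a higher and 3 a lower call. Mycn stood at 0.95, 0.26 and 0.36 in knockout and -2.06, -1.51 and -3.49 in wild-type cells after hCG, without overlap. The count by leading probe sets was 1 without replicate 1 of wild type after hCG or without any 1 of the knockout arrays after hCG. In wild type hCG lowered Foxo1 (-2.02), Mycn (-1.98) and Myc (-1.69), 3 of 14, and 2 of 14 without replicate 1 of wild type after PMSG, while other probe sets of Cebpb (1.92) and Klf4 (3.11) were called higher. After PMSG alone Myc was called lower in the knockout, at 0.13, -0.17 and -0.13 in knockout and 2.49, 1.55 and 1.43 in wild-type cells (-1.88 ± 0.28, adjusted p = 0.00922), and so was a second probe set of Smad3 (-0.72, adjusted p = 0.0358).

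The p53 targets other than Cdkn1a were called in both directions. Over all genes 6.34% were called higher and 7.14% lower for hCG in wild type, and 7.79% and 5.47% between genotypes after hCG. Of 11 p53 targets measured, hCG in wild type raised 2, Gadd45a (1.22) and Sesn2 (1.10), and lowered 1, Sesn1 (-0.96). Their median was 0.32, and another probe set of Mdm2 rose (0.57, adjusted p = 0.0427). By leading probe sets, without single arrays 0 to 2 were called higher and 0 to 2 lower, with 0 higher when replicate 3 of wild type after PMSG was left out and 0 lower when replicate 3 of wild type after hCG was. After hCG knockout cells had more Plk2 (3.48) and less Zmat3 (-1.43), and hCG raised Plk2 by 4.67 ± 0.66 in the knockout (adjusted p = 0.00818). Probe sets other than the leading one were called lower in the knockout after hCG for Ccng1 (-0.997, adjusted p = 0.00862), Mdm2 (-0.64, adjusted p = 0.0270) and Trp53inp1 (-0.73, adjusted p = 0.0319), so with every probe set counted 1 gene had a higher and 4 a lower call. Trp53inp1 was lower after PMSG as well (-1.95, adjusted p = 0.00154). Plk2, a polo-like kinase, read 4.95, 2.73 and 2.32 in knockout and 0.23, 0.071 and -0.72 in wild-type cells after hCG. A second Plk2 probe set was near 0, at -0.0043 for genotype after hCG and -0.020 for hCG in the knockout. By leading probe sets, without single arrays 1 was called higher and 1 to 3 lower in the knockout after hCG, with 3 lower when replicate 3 of the knockout after PMSG was left out.

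Among genes of cyclin and inhibitor turnover Skp2, the F-box protein that marks p27 for destruction, was higher in the knockout on most of its probe sets. Its leading probe set was not called (0.99 ± 0.79 after hCG, adjusted p = 0.620). The other 5 were all called after hCG, at 0.87 to 1.31 (adjusted p = 0.00364 to 0.0327), and 3 of the 5 after PMSG, at 0.84 to 0.94. By leading probe sets, of 11 measured genes knockout cells after hCG had more Usp2 (1.11, adjusted p = 0.0394), a deubiquitinase that stabilises cyclin D1 in human cells, and less Fbxo4 (-0.80, adjusted p = 0.0498), an F-box protein. Neither of these 2 calls held in all fits without 1 array. Other probe sets of Cul3 (-0.60, adjusted p = 0.0215) and Gsk3b (-0.75, adjusted p = 0.0436) were called lower in the knockout after hCG. In wild type hCG raised Fbxo4 (1.20, adjusted p = 0.00898) and Cul1 (0.45). In the knockout hCG raised Fbxw7 (1.30, adjusted p = 0.0270), the F-box protein that marks cyclin E for destruction. A second probe set of Fbxw7 gave 0.23 there and was not called (adjusted p = 0.848). That of Fbxo4 was near 0, at -0.012 for hCG in wild type and -0.0070 for genotype after hCG. Leaving out single arrays gave 1 to 3 rises in wild type and 0 or 1 in the knockout. Of the other kinase inhibitors Cdkn3, a phosphatase of cyclin-dependent kinases, fell after hCG in wild type (log2 difference -1.52 ± 0.32, adjusted p = 0.0144), a call lost without replicate 3 of wild type after PMSG or after hCG. Cdkn2a and Cdkn2b, the other INK4 genes, were not called in any comparison.

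The genes whose profile over the 12 arrays was most like that of a member are given as a description, for the members whose leading probe set was in the upper 10% by SD. The arrays share their groups, so these correlations largely follow the group means. Ccnd2 was most like Paqr9 (Pearson r = 0.956), Pgbd5 (0.940) and Camta1 (0.931). Ccne2 was most like Dock2 (0.967), Ralb (0.966) and Prmt7 (0.964), and Cdkn1a most like Acsl4 (0.975), Arhgef12 (0.967) and Mief1 (0.965). For Ccnd1 the nearest were Cnih4 (0.915), Tm2d2 (0.912) and Cyb561d2 (0.900).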

How the data were processed

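RNA of granulosa cells (Qiagen RNeasy, per the labels' protocols) was measured on 12 Affymetrix arrays, grouped by genotype and treatment from the labels. The authors deposited GCRMA values (per the submitters' processing notes), which were read here as log2. The version and the centring step are not given in the sources used here. All 45101 probe sets had a median of 0 over the arrays (at most 5e-07 away), so no filter on low values or background call was possible, and none was used. The base of the logarithm was taken from the range of the values, of which the widest was 13.3. 

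Gene names came from the platform annotation. The 64 controls, 932 probe sets with several genes and 9160 with none were left out. The remaining 34945 entered a limma model of the 4 group means (limma 3.58.1, R 4.3.3), tested on simulated data first. Benjamini-Hochberg adjustment ran over all of them, and a call is an adjusted p under 0.05. All members were described, with at most 4 called genes of each pathway list by smallest adjusted p, every call where a list had few, and the 3 genes most like each member of high SD. Further genes of a list were named after their values were seen. Members and lists were chosen with earlier results of these data known, so they are no independent support. The alternatives changed the filter, the summary per gene, the normalization, the weights, the groups fitted, the array serial and the array name number, and left out each array. Intervals and p-values cover the spread between 3 arrays a group, a number that limits the precision. Counts of the pathway lists under these alternatives, and over every probe set of their genes, were added after the data were seen.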

Additional observations from a re-analysis of the deposited data

How the results depend on the processing

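Among the 25 alternatives, the calls of Ccnd2 and Ccne1 after hCG were lost only within the early or the late arrays alone, and that of Cdkn1a for hCG in wild type only within the early arrays (it has no fit within the late ones). There each hCG group has 1 early array and the knockout after PMSG 1 late array, which is assumed to vary like the other groups. For knockout against wild type after PMSG 1 member was called, 6 with array weights (0.125 to 7.64, the lowest for replicate 3 of the knockout after PMSG), 0 with only the 2 groups, 0 with early arrays and 0 to 1 without single arrays. After hCG 4 were called, 2 with the array name number as a random block (consensus correlation 0.573), 0 within early or late arrays, and 2 to 6 without single arrays, with 2 when replicate 3 of wild type after hCG was left out. For hCG in wild type 2 were called, 5 with the SD filter per gene, 5 with the mean of all probe sets, 8 with array weights, 5 with only the 2 groups, 1 with the random block, 1 with the array serial as a covariate, 0 with early arrays and 1 to 5 without single arrays. These ranged from 1 without replicate 1 of wild type after PMSG or replicate 3 of wild type after hCG to 4 and 5 without replicates 1 and 3 of the knockout after PMSG. For hCG in the knockout 0 were called, 1 (Cdkn1a) with the SD filter, with renewed quantile normalization and with late arrays (against the single late knockout array after PMSG, the lowest of all for Cdkn1a at -3.44), 8 with array weights, and 0 to 1 without single arrays. For the interaction 0 were called, 3 with array weights and 0 without any single array. The cause of these changes was not tested, except that fits of part of the arrays have fewer samples.

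Whether the replicate numbers pair the samples was not settled by these values. Correlations of same-numbered arrays' deviations from their group means ran from -0.115 to 0.274. For differently numbered arrays of different groups they ran from -0.247 to 0.181. With the replicate block 1, 4, 2, 0 and 0 members were called in the 5 comparisons, in the order above. Member values called on any probe set, or close to the threshold on the leading one, were set aside for the next count. Of the 36 other member values, none of them called, 23 turned sign under at least 1 alternative. Of these 1 was then called, Ccnd1 after PMSG with array weights (-1.01, adjusted p = 0.0114).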
